A study of Mus musculus with 6 samples.

Results

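The 34 genes described here encode the enzymes that make cholesterol and fatty acids in the cell and the SREBP transcription factors with the proteins that control them. They were taken from the list by gene symbol, and all 34 were found among the 52636 Ensembl genes of the count table. Of these, 17 are enzymes of the route from acetyl-CoA to cholesterol, 5 are SREBP factors or their regulators, 11 act in fatty acid synthesis, desaturation or elongation, and 1 (Stard4) carries sterols between membranes. The low count filter removed Thrsp, so 33 genes were tested.

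RNA was sequenced from 3 biological replicates each of J110 and SSM3 cells, a pair of mouse mammary tumour cell lines, grown in culture without treatment. J110 cells came from tumours of transgenic mice in which the MMTV LTR, a viral promoter active in mammary epithelium, drives an AIB1 cDNA, and SSM3 cells from mammary tumours of 129SvEv mice. Each line is a single established line, so replicates are cultures of that line and not separate tumours. J110 cells were kept in 5% foetal bovine serum and 5% CO2 and SSM3 cells in 10% serum and 10% CO2. Both media were DMEM/F12 with insulin and hydrocortisone, and that of SSM3 cells also held glutamine, β-mercaptoethanol and transferrin. Serum carries lipoprotein cholesterol and fatty acids, and its share differed with the line, so the effects of line and of culture medium cannot be told apart in any comparison below.

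As background, cells build cholesterol from acetyl-CoA through mevalonate, isoprenoid diphosphates, squalene and lanosterol. SREBP proteins are held in the endoplasmic reticulum by SCAP and INSIG while membrane sterols are plentiful. When sterols fall, SCAP escorts them to the Golgi, where they are cleaved and released to switch on these same genes. SREBP2, from Srebf2, acts mainly on cholesterol genes, and SREBP1, from Srebf1, mainly on fatty acid genes under the influence of insulin and the oxysterol receptor LXR. In the mammary gland the fatty acid branch also supplies milk fat.

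Total counts per library ranged from 4200785 to 5416305. Values are given as CPM, counts brought to a common library size, with sizes scaled by the TMM method of edgeR to correct for differences in RNA composition. Because the libraries were primed at the 3′ end of transcripts, counts do not grow with transcript length. A count of 3 corresponded to between 0.578 and 0.668 CPM, and 1 or a few counts were not distinguished from none. For Ncoa3, which encodes AIB1, the J110 libraries held 110, 106 and 102 counts and the SSM3 libraries 181, 199 and 186. The transgene therefore did not check the labels, and J110 and SSM3 below mean the labels. Of 6 epithelial markers, 5 were higher in SSM3 and Krt18 was lower. Epcam, an epithelial surface protein by which the study also typed its cell lines, had 2, 1 and 7 counts in J110 and 2376, 2404 and 2412 in SSM3. Cdh1, the epithelial cadherin, had 21, 11 and 28 counts in J110 and 6019, 6369 and 7179 in SSM3. The keratins Krt8 and Krt18 were abundant in both lines, with means of 1275 CPM (J110) and 2269.7 CPM (SSM3) for Krt8 and of 1430.3 CPM (J110) and 969.98 CPM (SSM3) for Krt18. The ribosomal RNA locus took from 15.1% to 17.2% of counts in J110 and from 0.779% to 1.27% in SSM3. Stray counts were also seen on genes above 200 CPM in one line and below 1 CPM in the other. They reached 21 of 23 such genes in J110 replicate 3 and 18 of 18 in SSM3 replicate 2.

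The study profiled the lines as candidate models of oestrogen receptor-positive breast cancer, and the question here was how their lipid synthesis genes compare. Transcripts of the cholesterol enzymes together made up 1681, 1704 and 1751 CPM in J110 and 3477, 3065 and 3040.3 CPM in SSM3. Every SSM3 library lay above every J110 library, and the ratio of the means was 1.87. Over all 34 genes the sums were 4136 ± 58.3 CPM for J110 against 6950.3 ± 344 CPM for SSM3 (SD, n = 3). Without TMM, with library size only, the ratio for the cholesterol enzymes was 2.11.

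Of the 33 genes tested, 19 were higher in SSM3 and 10 lower at an adjusted p below 0.05 (edgeR's quasi-likelihood test, Benjamini-Hochberg adjustment over all 12284 genes tested). That is 57.6% higher and 30.3% lower, where 38.6% of all genes tested were higher and 39.2% lower. Of the 33 genes Fads2 alone passed the low count filter through 1 line only, J110, and without it 19 of 32 were higher and 9 lower. Calls in either direction covered 87.9% of the listed genes and 77.9% of all genes tested, so being called is common between these lines. A change of at least 2-fold was called for 51.5% of the listed genes and 43.7% of all. The median log2 fold change was 0.67 over the listed genes and -0.014 over all genes tested. In bulk RNA, fewer cells that express a gene and less RNA per cell cannot be told apart. The libraries of the lines did not overlap for 27 of the 33 genes (81.8%), against 79.6% of all genes tested. With library size only, the median of all genes shifted to 0.16, and 21 of the listed genes were higher and 6 lower.

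By role, of the 17 cholesterol enzymes 12 were higher in SSM3, 3 lower and 2 not called, with a median log2 fold change of 1.001. Of the 10 fatty acid genes tested, 6 were higher and 4 lower, with a median of 0.55. Of the 5 SREBP factors and regulators, 1 was higher, 3 lower and 1 not called, with a median of -0.38. All 16 genes tested that are not cholesterol enzymes, Stard4 included, had a pooled median of 0.020. Summed CPM was 1.80 times as high in SSM3 for acetyl-CoA supply and fatty acid synthesis and 1.55 times for desaturation and elongation. In the latter role 3 genes were higher and 3 lower, with a median log2 fold change of 0.18, and Scd2 alone made up 969 of 1548 CPM in J110 and 1561 of 2394 CPM in SSM3. Whether these groups of genes differ was not tested.

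**Figure D1:**
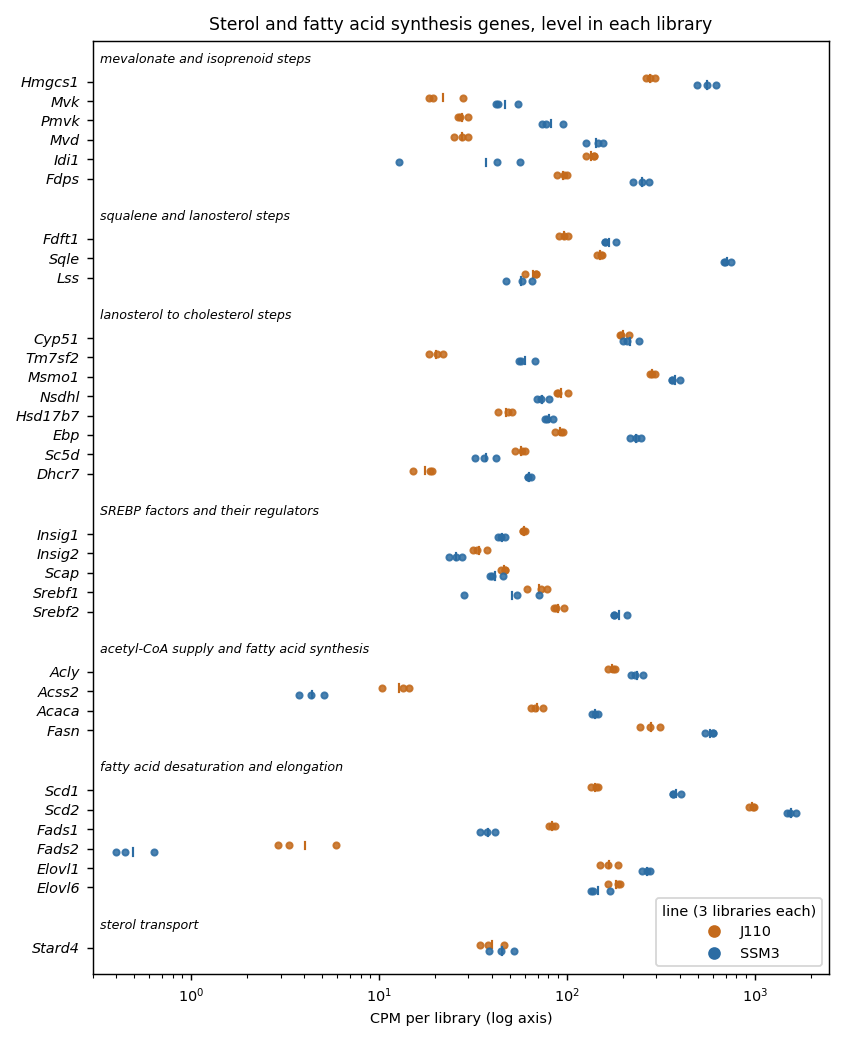
Level of each of the 33 tested genes in each library, as CPM on a log axis, with genes in pathway order. Points are single libraries (3 per line) and short vertical lines are means. Most cholesterol enzymes sit further right in SSM3, while Idi1, Sc5d and Nsdhl sit further left.

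In the mevalonate and isoprenoid steps, 5 of 6 genes were higher in SSM3 and 1 was lower. Hmgcs1, which makes HMG-CoA at the head of the pathway, had 264, 278 and 295 CPM in J110 and 624, 558 and 493 CPM in SSM3. Its lines did not overlap (log2 fold change 1.001, standard error 0.0845, adjusted p = 1.41e-08). Mvk, the mevalonate kinase, was counted at 22.05 ± 5.30 CPM for J110 against 46.7 ± 7.25 CPM for SSM3 (SD, n = 3). Pmvk, the kinase that adds the next phosphate, was counted at 27.7 ± 1.87 CPM for J110 against 82.3 ± 11.4 CPM for SSM3 (SD, n = 3). The log2 fold changes of these kinases were 1.08 and 1.57, and in both genes the SSM3 libraries lay above the J110 libraries.

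Mvd, which decarboxylates mevalonate diphosphate to isopentenyl diphosphate, changed most among the genes higher in SSM3. It had 25.3, 29.7 and 27.8 CPM in J110 and 156, 127 and 147 CPM in SSM3. The lowest SSM3 library lay far above the highest J110 library (log2 fold change 2.38, standard error 0.106, adjusted p = 3.51e-12). Fdps, which joins isoprenoid units into farnesyl diphosphate, had 88.7, 97.1 and 99.95 CPM in J110 and 273, 226 and 252 CPM in SSM3 (log2 fold change 1.39, standard error 0.0874, adjusted p = 3.25e-10). All of the last 400 bases of Fdps lie also in the exons of Gm43738, a protein-coding gene model on the same strand. Gm43738 had 240, 255 and 258 counts in J110 and 737, 665 and 721 in SSM3, so how reads were shared between them is uncertain.

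Idi1 went the other way. It encodes the isomerase between the Mvd and Fdps steps, which turns isopentenyl into dimethylallyl diphosphate. It had 139, 139 and 127 CPM in J110 and 56.6, 42.7 and 12.7 CPM in SSM3. All SSM3 libraries lay below all J110 libraries, and they were also far apart from each other, with replicate 3 lowest (log2 fold change -1.87, standard error 0.273, adjusted p = 9.86e-06). The spread of Idi1 between SSM3 replicates, 1.12 as an SD of log2 CPM, was at the 99.5th percentile of all genes tested, while in J110 it was 0.079, at the 26th. Without SSM3 replicate 3 the log2 fold change was -1.45 and without SSM3 replicate 1 it was -2.30, both still called.

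The squalene and lanosterol steps hold 3 genes. Sqle, the squalene epoxidase that is a control point of the sterol-specific branch, had 145, 153 and 152 CPM in J110 and 752, 683 and 695 CPM in SSM3. Its replicates were close within each line and the lines lay far apart (log2 fold change 2.24, standard error 0.0718, adjusted p = 5.40e-14). Fdft1, which makes squalene from farnesyl diphosphate, was counted at 96.3 ± 5.73 CPM for J110 against 168 ± 13.1 CPM for SSM3 (SD, n = 3) (log2 fold change 0.81, standard error 0.0856, adjusted p = 2.48e-07). The last 400 bases of Fdft1 lie in exons of Ctsb on the opposite strand, and Ctsb had 2253, 2284 and 2219 counts in J110 and 499, 558 and 596 in SSM3, the other direction. The strand setting of the counting is not given in the sources used here, so the Fdft1 value is uncertain. Lss, which cyclises squalene epoxide to lanosterol, was not called, with 60.3, 68.8 and 68.2 CPM in J110 and 65.5, 57.5 and 47.8 CPM in SSM3 and overlapping lines (log2 fold change -0.21, standard error 0.111, adjusted p = 0.0921). Without SSM3 replicate 1, Lss was called lower in SSM3 (log2 fold change -0.32, adjusted p = 0.0192).

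Of the 8 genes from lanosterol to cholesterol, 5 were higher in SSM3, 2 lower and 1 not called. Dhcr7, which catalyses a last reduction of the pathway, had 18.7, 19.2 and 15.2 CPM in J110 and 61.9, 62.4 and 64.3 CPM in SSM3 (log2 fold change 1.82, standard error 0.115, adjusted p = 3.58e-10). Every SSM3 library was above 60 CPM and every J110 library below 20. Ebp, the sterol isomerase, had 95.6, 92.96 and 86.2 CPM in J110 and 250.1, 219 and 233 CPM in SSM3 (log2 fold change 1.35, standard error 0.0821, adjusted p = 2.19e-10). Tm7sf2, a sterol reductase, had a log2 fold change of 1.57, but 532 of its exon bases are shared on the same strand with Vps51, which had 82, 82 and 70 counts in J110 and 309, 320 and 414 in SSM3. Tm7sf2 is therefore uncertain.

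Smaller differences were found along the demethylation steps. Hsd17b7, a ketoreductase of sterol C4 demethylation, was counted at 47.7 ± 3.998 CPM for J110 against 80.1 ± 3.86 CPM for SSM3 (SD, n = 3), a log2 fold change of 0.74. Msmo1, the oxidase of the same process, was counted at 286 ± 8.21 CPM for J110 against 375 ± 21.4 CPM for SSM3 (SD, n = 3), a log2 fold change of 0.39. Nsdhl, the dehydrogenase that acts between them, was lower in SSM3, with 89.1, 89.6 and 102 CPM in J110 and 80.2, 69.9 and 72.8 CPM in SSM3 (log2 fold change -0.33, standard error 0.0913, adjusted p = 0.00353). The demethylation genes thus moved in both directions although they serve 1 process. With library size only Nsdhl was not called (log2 fold change -0.15, adjusted p = 0.125).

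Sc5d, the desaturase just before Dhcr7, was also lower in SSM3, with 58.03, 53.2 and 59.9 CPM in J110 and 42.3, 36.3 and 32.4 CPM in SSM3 (log2 fold change -0.63, standard error 0.111, adjusted p = 7.51e-05). Its direction was opposite to that of its neighbours Ebp and Dhcr7, with no overlap between lines in any of these genes. Cyp51, which removes the C14 methyl group of lanosterol, was not called, with 195, 192 and 213 CPM in J110 and 244, 209 and 200.4 CPM in SSM3 and overlapping lines (log2 fold change 0.12, adjusted p = 0.201). With library size only Cyp51 was called higher (log2 fold change 0.30). Cyp51 shares 166 exon bases with Akap9 on the opposite strand, which had from 480 to 574 counts in J110 and from 363 to 412 in SSM3, so it is uncertain.

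**Figure D2:**
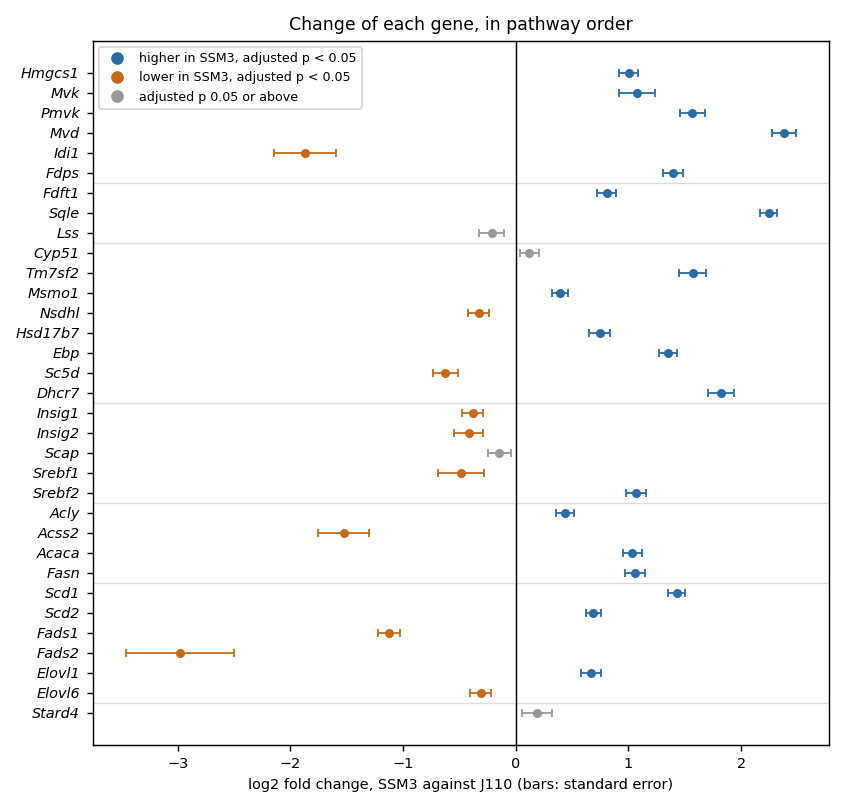
Log2 fold change of each tested gene, SSM3 against J110, from edgeR, in pathway order from Hmgcs1 to Stard4. Points right of 0 are higher in SSM3, bars are standard errors, and grey points did not pass an adjusted p of 0.05. Values run from -2.98 for Fads2, which passed the low count filter only through J110, to 2.38 for Mvd.

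In all, 13 of the listed genes share exon bases with another gene. Besides those named with their values, these are Hmgcs1, Idi1, Lss, Scap, Scd2 and Elovl6, whose partners had at most 17 counts in J110 libraries and 86 in SSM3 libraries. The last 400 bases of Idi1, Fdps, Acaca and Elovl6 also hold stretches at least 95% identical to processed pseudogenes, which had at most 2 counts in any library. How the aligner placed reads that match several copies was not tested for any of these 4 genes.

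When edgeR tested for a change beyond 2-fold, 8 genes passed as higher (Mvd, Sqle, Dhcr7, Tm7sf2, Pmvk, Scd1, Fdps and Ebp) and 3 as lower (Idi1, Acss2 and Fads2). All but Scd1, Acss2 and Fads2 are cholesterol enzymes. Fads2 passed the low count filter only through J110, so its place here is no independent evidence. Over all 12284 genes tested, 2094 were higher and 2178 lower by that test, 4272 in all. Passing was thus about as common over all genes as among the 33 listed genes.

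Of the SREBP factors, Srebf2 had 87.9, 96.9 and 85.8 CPM in J110 and 210.4, 179 and 179 CPM in SSM3. All SSM3 libraries lay above all J110 libraries (log2 fold change 1.07, standard error 0.0894, adjusted p = 1.26e-08). Srebf1 had 73.3, 78.1 and 61.6 CPM in J110 and 70.8, 54.2 and 28.5 CPM in SSM3. The SSM3 libraries were spread widely, replicate 1 within the range of J110 and replicate 3 far below it (log2 fold change -0.48, standard error 0.205, adjusted p = 0.0412).

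The call for Srebf1 was not stable. DESeq2 gave an adjusted p of 0.246 and the robust fit of edgeR 0.281. It was also not called without J110 replicate 1. Without J110 replicate 2 the adjusted p was 0.1495, without SSM3 replicate 2 it was 0.0774, and without SSM3 replicate 3 it was 0.156 with a log2 fold change of -0.19. The spread of Srebf1 between SSM3 replicates was at the 96.6th percentile of all genes tested. As for Idi1, SSM3 replicate 3 was the lowest library. Srebf1 also shares 109 exon bases with Rai1 on the opposite strand, which had from 175 to 205 counts in J110 and from 111 to 134 in SSM3, and is uncertain for that reason too.

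Within each library, the log2 ratio of Srebf1 to Srebf2 was -0.26, -0.31 and -0.48 in J110 and -1.57, -1.72 and -2.63 in SSM3. The lines did not overlap, and the mean difference was -1.62 (p = 0.1 by an exact two-sided permutation test, which can go no lower with 3 libraries a line, adjusted p = 0.15 over 3 ratios). Without SSM3 replicate 3 the difference was -1.29.

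Of the proteins that hold SREBP back, Insig1, itself a target of SREBP, had 58.6, 58.3 and 59.9 CPM in J110 and 44.98, 43.3 and 47.2 CPM in SSM3. Replicates of each line lay close together and the lines did not overlap, SSM3 being lower (log2 fold change -0.38, standard error 0.0912, adjusted p = 0.00112). Insig2, the isoform that is less dependent on sterols, had 31.8, 37.8 and 33.4 CPM in J110 and 27.6, 23.6 and 25.9 CPM in SSM3 (log2 fold change -0.42, standard error 0.125, adjusted p = 0.0062). It was not called with library size only (adjusted p = 0.0909). The log2 ratio of Insig1 to Insig2 was 0.78 ± 0.14 in J110 and 0.81 ± 0.096 in SSM3 (SD, n = 3 each; exact two-sided permutation test, p = 0.7). Scap, the escort protein, was not called, with 44.9, 46.7 and 46.95 CPM in J110 and 39.2, 39.9 and 45.8 CPM in SSM3 (log2 fold change -0.15, adjusted p = 0.197), and its sign turned to 0.028 with library size only.

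**Figure D3:**
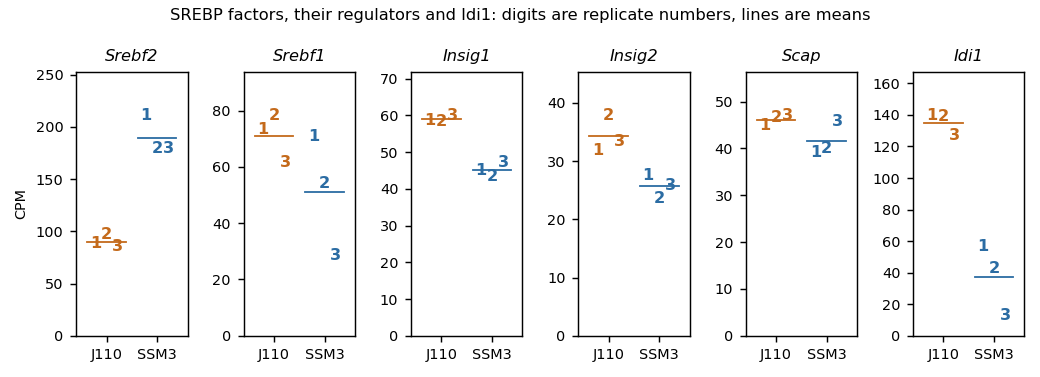
CPM of the SREBP factors, their regulators and Idi1 in each library, on linear axes that start at 0. Digits are replicate numbers and lines are means of 3 libraries. Srebf2 is higher in all SSM3 libraries, and Srebf1 and Idi1 spread widely in SSM3 with replicate 3 lowest.

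In acetyl-CoA supply and fatty acid synthesis, 3 of the 4 tested genes were higher in SSM3. Acly, which splits citrate to cytosolic acetyl-CoA, was counted at 174 ± 7.98 CPM for J110 against 235 ± 16.6 CPM for SSM3 (SD, n = 3) (log2 fold change 0.44). Acaca, which carboxylates acetyl-CoA to malonyl-CoA, had 64.97, 75.2 and 67.8 CPM in J110 and 136, 142 and 147 CPM in SSM3 (log2 fold change 1.03, standard error 0.0862, adjusted p = 1.21e-08). Fasn, the fatty acid synthase, had 316, 278 and 244 CPM in J110 and 546, 599 and 600.3 CPM in SSM3 (log2 fold change 1.06, standard error 0.0863, adjusted p = 9.24e-09). For Acaca and Fasn the SSM3 mean was about 2.05 and 2.08 times that of J110, and no library of one line reached the other.

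Acss2, which makes acetyl-CoA from acetate, was lower in SSM3. It had 75, 68 and 50 counts in J110 and 17, 24 and 22 in SSM3, at 12.8 ± 2.09 CPM for J110 against 4.42 ± 0.657 CPM for SSM3 (SD, n = 3) (log2 fold change -1.53, standard error 0.228, adjusted p = 1.27e-05). Acss2 shares 395 exon bases with Gss on the opposite strand, which had from 89 to 106 counts in J110 and from 59 to 95 in SSM3, so its value is uncertain. Thrsp, a lipogenic regulator of liver, fat and lactating mammary gland, had 2, 1 and 0 counts in J110 and 3, 2 and 3 in SSM3. It was at or below the limit of 3 counts in every library and was not tested.

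Scd1 and Scd2, the stearoyl-CoA desaturases that make monounsaturated fatty acids, were both higher in SSM3. Scd1 had 135, 147 and 144 CPM in J110 and 369.6, 369.7 and 404 CPM in SSM3 (log2 fold change 1.43, standard error 0.0743, adjusted p = 2.94e-11). Scd2 had 981, 992 and 934 CPM in J110 and 1657, 1543 and 1483 CPM in SSM3 (log2 fold change 0.69, standard error 0.0682, adjusted p = 1.06e-07). The log2 ratio of Scd1 to Scd2 was -2.86, -2.75 and -2.70 in J110 and -2.16, -2.06 and -1.87 in SSM3, a difference of 0.74 with no overlap (p = 0.1 by the same exact permutation test, again its lowest possible value, adjusted p = 0.15). The last 400 bases of Scd1 and Scd2 held no stretch of 75 bases or more at 95% identity to a transcript of another gene.

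Fads1 and Fads2 are the desaturases of polyunsaturated fatty acids, and Fads1 was lower in SSM3. Fads1 had 83.5, 80.1 and 86.2 CPM in J110 and 34.5, 37.8 and 41.8 CPM in SSM3 (log2 fold change -1.13, standard error 0.0956, adjusted p = 1.50e-08). Fads2 had 15, 30 and 16 counts in J110 and 2, 3 and 2 in SSM3. The pooled ratio of J110 to SSM3 was 8.24 (95% exact interval 3.77 to 21.4, counting error only). Every library of Fads2 in SSM3 was at or under 3 counts, and it passed the low count filter only through J110, so its call is no independent evidence and its size in SSM3 is poorly known.

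Of the elongases, Elovl1, which acts on saturated and monounsaturated very long chains, was higher in SSM3, with 188, 165 and 149.6 CPM in J110 and 252, 268 and 278 CPM in SSM3 (log2 fold change 0.67, standard error 0.0859, adjusted p = 2.43e-06). Elovl1 shares 53 exon bases with Cdc20 on the opposite strand, which had from 617 to 890 counts in J110 and from 748 to 916 in SSM3, so it is uncertain. Elovl6, which extends palmitate, was called lower, with 188, 193 and 167 CPM in J110 and 170.1, 137 and 134 CPM in SSM3, but SSM3 replicate 1 lay within the range of J110 (log2 fold change -0.31, standard error 0.0961, adjusted p = 0.00743). It was not called with library size only (log2 fold change -0.14, adjusted p = 0.227). Stard4, the sterol carrier, was not called, with 34.7, 38.2 and 46.5 CPM in J110 and 52.6, 44.8 and 38.8 CPM in SSM3 and overlapping lines (log2 fold change 0.19, adjusted p = 0.201). Without SSM3 replicate 3 it was called higher (log2 fold change 0.29, adjusted p = 0.0425).

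Adipocytes express many of these genes, so their markers were checked. Of 10 adipocyte markers, 5 had no count in any library, Adipoq and Plin1 among them. Their summed level ranged from 27.2 to 32.0 CPM in J110 and from 20.3 to 36.2 CPM in SSM3, most of it from Plin4, while Fabp4 had 31, 34 and 29 counts in J110 and 0, 3 and 0 in SSM3. In J110, summed levels of 7 leukocyte, 4 endothelial and 5 fibroblast markers were at most 36.99, 2.30 and 1.98 CPM. In SSM3 they were at most 16.99, 0.223 and 1.91 CPM. The leukocyte sums came mostly from Cd68 and Csf1r. Cd68 had 115, 95 and 70 counts in J110 and 9, 5 and 6 in SSM3, while Csf1r was not called (log2 fold change -0.011). Among fibroblast markers Col1a2 and Lum had no count, Col1a1 had 5, 6 and 5 counts in J110, and Pdgfra had 2, 9 and 2 in SSM3.

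**Figure D4:**
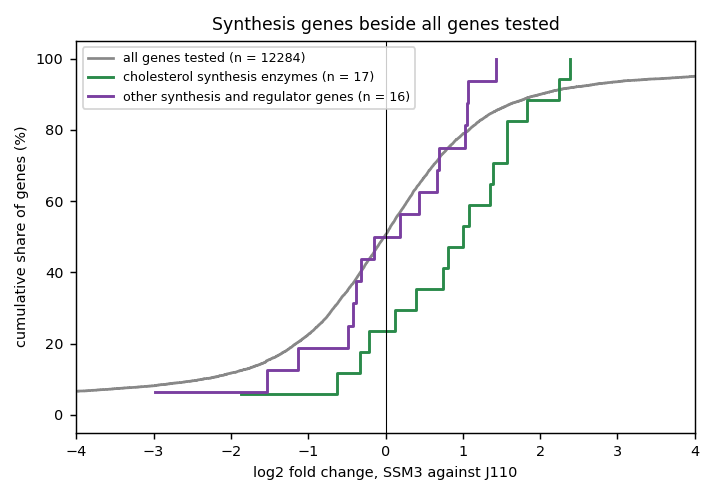
Cumulative share of genes by log2 fold change, SSM3 against J110, for all 12284 genes tested, the 17 cholesterol enzymes and the 16 other listed genes tested. The horizontal axis ends at -4 and 4, so genes beyond these are not drawn. The curve of the cholesterol enzymes lies to the right, with a median of 1.001, and that of the other genes, which pools the fatty acid genes with the SREBP factors, their regulators and Stard4, has a median of 0.020.

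The promoters of the listed genes were searched for letters known from sterol-regulated genes. Windows from 250 bases before to 50 after the RefSeq start site (GRCm38.p6, the mm10 build) were found for 27 of the 34 genes by symbol. The motifs were TCACNCCAC for the sterol regulatory element (SRE), CCAAT for NF-Y, a factor that acts beside SREBP, GGGCGG for SP1 and CACGTG for an E-box, on both strands. CCAAT or its complement ATTGG was found for 23 of 27 genes (85.2%), and for 14 of the 14 cholesterol enzymes with a window, where 43.0% of the 9105 tested genes with a window held it. For 13 of these 14 enzymes a match lay within 100 bases before the start site, against 26.4% of the tested genes. It was found for 13 of 14 genes higher in SSM3 and for 7 of 9 genes lower in SSM3, so it did not part the directions.

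GGGCGG was found for 81.5% of the listed genes and 70.4% of the tested genes, and CACGTG for 18.5% and 12.0%. The SRE letters were found for Hmgcs1 alone, where 1.29% of the tested genes held them. A match describes these letters only, and neither a match nor its absence was tested for binding. The stretches of 250 bases before the start site are printed for 3 enzymes higher in SSM3 (Hmgcs1, Mvd and Ebp) and 2 lower (Nsdhl and Sc5d), to show that NF-Y letters stand near the start in both. Capitals mark matches to NF-Y and, in Hmgcs1, the SRE match from 137 to 129 bases before the start.
Hmgcs1, chr13:119690101-119690350, forward strand: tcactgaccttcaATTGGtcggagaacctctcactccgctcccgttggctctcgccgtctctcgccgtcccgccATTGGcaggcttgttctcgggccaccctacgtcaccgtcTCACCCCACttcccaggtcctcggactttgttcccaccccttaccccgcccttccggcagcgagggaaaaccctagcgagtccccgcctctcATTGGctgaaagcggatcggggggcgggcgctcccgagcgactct
Mvd, chr8:122443423-122443672, reverse strand: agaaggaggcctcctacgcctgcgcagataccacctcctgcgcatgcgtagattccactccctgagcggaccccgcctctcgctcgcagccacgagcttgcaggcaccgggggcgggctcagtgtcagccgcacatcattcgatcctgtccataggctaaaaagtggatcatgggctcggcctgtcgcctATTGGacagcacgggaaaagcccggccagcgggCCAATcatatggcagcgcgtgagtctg
Ebp, chrX:8193513-8193762, reverse strand: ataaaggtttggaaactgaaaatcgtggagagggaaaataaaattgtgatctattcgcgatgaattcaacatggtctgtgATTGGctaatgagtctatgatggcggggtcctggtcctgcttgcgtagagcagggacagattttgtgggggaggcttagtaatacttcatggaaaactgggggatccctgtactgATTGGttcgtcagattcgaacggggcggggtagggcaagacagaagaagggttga
Nsdhl, chrX:72918271-72918520, forward strand: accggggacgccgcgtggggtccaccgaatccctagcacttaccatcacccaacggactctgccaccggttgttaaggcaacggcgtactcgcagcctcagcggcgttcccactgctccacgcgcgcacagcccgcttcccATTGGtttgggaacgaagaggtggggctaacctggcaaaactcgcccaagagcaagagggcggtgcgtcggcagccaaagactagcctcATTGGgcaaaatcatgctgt
Sc5d, chr9:42264301-42264550, reverse strand: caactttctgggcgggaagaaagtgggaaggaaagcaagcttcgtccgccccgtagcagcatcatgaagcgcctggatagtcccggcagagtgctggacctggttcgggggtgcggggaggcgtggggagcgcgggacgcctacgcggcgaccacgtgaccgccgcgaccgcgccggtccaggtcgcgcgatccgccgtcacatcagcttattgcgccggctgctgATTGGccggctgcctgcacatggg

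In these sequences the ATTGG nearest the start lies at 45 bases before the start in Hmgcs1 and 55 in Ebp, genes higher in SSM3, and at 20 in Nsdhl and 24 in Sc5d, genes lower in SSM3. Mvd holds a pair of matches in opposite orientation, at 60 and 27 bases before the start.

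**Figure D5:**
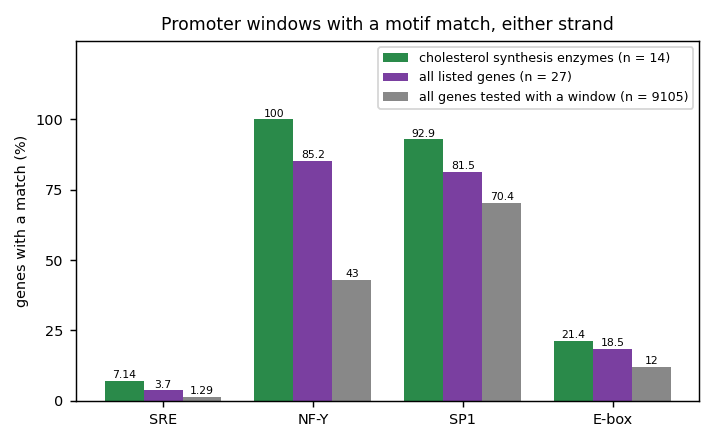
Share of genes whose promoter window holds each motif on either strand, for the 14 cholesterol enzymes with a window, all 27 listed genes with a window and 9105 tested genes with a window. The vertical axis is in percent of genes. NF-Y letters are in all, 85.2% and 43.0% of these sets, the widest gap of the 4 motifs.

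Genes of the wider pathway that are not on the list were taken from 7 further lists of 86 genes. Of the 67 that could be tested, 30 were higher in SSM3 (44.8%), 22 lower (32.8%) and 15 not called, with a median log2 fold change of 0.11. Over all genes tested 38.6% were higher, 39.2% lower and 77.9% called, and of these 67 genes 77.6% were called. These counts include 8 genes that passed the low count filter through 1 line only, so a call was likely. Each had fewer than 10 counts in every library of the other line. Dgat2, Lpl and Nr1h3 passed through SSM3, and Fabp4, Gramd1b, Pparg, Soat1 and Vldlr through J110. Without them, an alternative chosen after seeing the data, 27 of 59 were higher (45.8%) and 17 lower (28.8%), where 37.4% and 36.8% of the 10490 genes so chosen from all genes tested were. Of the 9 genes of the LXR list 6 were tested. Nr1h2, Rxra, Rxrb and Abcg1 were called higher with no overlap between lines. Lpcat3 was called higher with overlapping lines (log2 fold change 0.26, edgeR adjusted p = 0.0215), and it shares 334 exon bases with Emg1, so its value is uncertain. Nr1h3 had 0, 1 and 0 counts in J110 and 21, 22 and 19 in SSM3. The targets Abca1, Abcg4 and Mylip had at most 2 counts in any library and were not tested. For the sterol uptake, esterification and transport list 5 were higher and 5 lower of 12, and for the nonsterol isoprenoid branch 3 higher and 5 lower of 10. Of the SREBP proteases and INSIG turnover list, 4 of 8 were higher and 4 not called.

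Soat1, which stores cholesterol as esters, had 1104, 1164 and 1219 counts in J110 and 2, 5 and 2 in SSM3. The pooled ratio of J110 to SSM3 was 367 (95% exact interval 193 to 802, counting error only). Without SSM3 replicate 2, which held 5 of the 9 SSM3 counts, it was 552 (interval 215 to 2026), an alternative chosen after seeing the data. Pparg, the adipogenic nuclear receptor, had 273, 226 and 180 counts in J110 and 0, 1 and 0 in SSM3. Its single SSM3 count lay in replicate 2, where stray counts were most widespread, so no fold is given. Fabp5, a fatty acid carrier, had a log2 fold change of -4.39, Hacd2, a dehydratase of fatty acid elongation, of -2.25 and Fads3 of -2.102. Fabp5 had 11, 5 and 7 counts in SSM3, so it too passed the low count filter mainly through J110. Fads1 and Fads3, of 1 desaturase family, were both called lower in SSM3. Hacd2 had 43, 32 and 18 counts in SSM3, lowest in replicate 3, as Idi1 and Srebf1 were. By CPM, replicate 3 was also the lowest SSM3 library for Hmgcs1, Lss, Sc5d and Scd2 among others. It was the highest for others, such as Tm7sf2, Fads1 and Fasn.

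In the other direction, Dgat2, which completes triglyceride synthesis, had 6, 5 and 8 counts in J110 and 137, 169 and 188 in SSM3, a pooled ratio of SSM3 to J110 of 27.5 (95% exact interval 17.4 to 46.04, counting error only). Abcg1, a sterol exporter and LXR target, had a log2 fold change of 2.66. Me1, which supplies NADPH for fatty acid synthesis, had 97.2, 101 and 98.5 CPM in J110 and 516, 489.9 and 496 CPM in SSM3 (log2 fold change 2.34, standard error 0.0714, adjusted p = 2.94e-14). Tecr, the last reductase of very long chain elongation, had a log2 fold change of 2.104, and Gramd1a, a sterol transporter at membrane contacts, of 1.98. Me1 and Gramd1a share exon bases with low-count genes on the opposite strand. Stray counts of the kind given above were seen in every library, and their part in the few counts of Soat1 and Pparg in SSM3 and of Dgat2 in J110 was not tested.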

How the data were processed

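RNA from 3 cultures each of J110 and SSM3 cells was sequenced with the QuantSeq 3′ kit. Per the submitters' processing notes and the study's methods, the authors mapped trimmed reads to mm10 with HISAT2 (version 2.0.4), counted them per gene with featureCounts (Subread 2.0.0) and deposited raw counts without normalisation. The strand setting and the handling of overlaps are not given in the sources used here. Symbols and positions came from GENCODE M21 on GRCm38 (52403 of 52636 identifiers matched, 99.6%), and promoters from RefSeq GRCm38.p6.

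Library sizes summed all genes. The filterByExpr function of edgeR (version 4.0.16, R 4.3.3) removed low genes, TMM gave scaling factors from 0.920 to 1.07, and lines were compared by edgeR's quasi-likelihood test with Benjamini-Hochberg adjustment and a threshold of 0.05. P-values measure the spread between cultures of 1 line each. Replicates differed by more than sampling noise (chi-square per degree of freedom from 2.27 to 5.85). The fit was also run on simulated counts in which few genes changed, with balanced directions. That setting is unlike these lines, where most genes were called, so it does not check the calls here. DESeq2 (1.42.0), limma-voom (limma 3.58.1), other scalings, filters and left-out libraries were alternatives. Log2 ratios used a prior count of 2.

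The genes, lists and tests were chosen with earlier results of these data known. All listed genes are named, and of the wider pathway lists the 5 largest changes in each direction with at least 10 CPM on average. Spring1 did not match. A genotype detail of the SSM3 source mice is not reported here.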

Additional observations from a re-analysis of the deposited data

How the results depend on the processing

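Over 18 alternatives, the 33 tested genes gave 557 values on the same side of the threshold and in the same direction as reported, 31 that lost the call, 4 that gained one and 1 that turned, Scap at 0.028 with library size only. The count of listed genes higher in SSM3 was 19 to 21 over all genes listed, except with the test beyond 2-fold, which gave 8, with 3 lower and 4272 of all genes called, as that test asks for more. With 13 genes that share exons left out, an alternative chosen after seeing the data, 13 of 20 were higher and 6 lower, with a median log2 fold change of 0.89. Library size only gave 6 lower and a median of 0.84, since it shifts every gene upwards. Leaving out 1 library at a time gave 19 to 20 higher, 9 to 11 lower, medians from 0.58 to 0.68 and 9275 to 9572 of all genes called. With J110 replicate 3 and SSM3 replicate 2 both left out, also chosen after seeing the data, 19 were higher and 7 lower. The log2 ratio difference of Insig1 to Insig2 turned from 0.030 to -0.048 without J110 replicate 2 and to -0.00068 without SSM3 replicate 2, and ranged up to 0.085 over the libraries left out.

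The labels do not say whether replicate numbers pair the cultures. Deviations of libraries with the same number correlated only between 0.012 and 0.027. The fit with the replicate number as a block gave 9481 genes called, 19 listed genes higher and 10 lower. Every J110 library correlated best with the SSM3 library of its own number, as a hint from the data. At these depths Thrsp in both lines and Fads2 in SSM3 were at the limit of 3 counts, and intervals cover counting error only.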
